A study of Homo sapiens with 6 samples.

Results

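Receptor tyrosine kinases outside the ERBB and TAM families were followed across 6 arrays of SUM149 cells, which are an established human line derived from an inflammatory breast tumour. They were chosen as a list of 44 gene names, and each gene was read from the probe set with the highest mean signal among those annotated to that gene alone. Of the 44 genes, 42 had such a probe set, out of 19775 genes in the whole table. DDR1 and EPHB2 had none and were not analysed here. The DDR1 probe sets were annotated to MIR4640 as well, so DDR1 was left out by this rule and not for a low signal. The 42 genes carried 131 probe sets between them.

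The siTIG1 group was 3 arrays of cells transfected with an siRNA pool against TIG1 (current symbol RARRES1), and the siControl group was 3 arrays of cells given a non-targeting pool. Both pools were used at 200 nmol/L in the same medium with insulin and hydrocortisone, but they came from different product lines (ON-TARGET Plus for TIG1, siGENOME for the control), so target and kind of siRNA cannot be told apart. All arrays come from 1 cell line. Whether replicates came from separate cultures is not given in the labels, so a p-value here reflects the spread among 3 arrays a group, and that spread may be technical. Values are the log2 signals that the authors deposited, and differences are siTIG1 minus siControl.

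Receptor tyrosine kinases are cell surface receptors with a kinase domain inside the cell. Binding of a secreted or membrane-bound ligand brings receptors together, the kinase domains phosphorylate each other, and adaptor proteins dock on the phosphorylated tyrosines and pass the signal on. In breast epithelium MET, the insulin-like growth factor receptor and the ephrin receptors are known for roles in growth, branching and cell contact, while receptors of the PDGF, VEGF and TIE families mostly belong to stromal, blood and endothelial cells. A few members, such as RYK, PTK7 and EPHB6, have a kinase domain regarded as inactive.

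Across probe sets siControl replicate 3 correlated with the other controls at 0.985 and 0.985 (Pearson's r), against 0.998 between siControl replicates 1 and 2 and at least 0.998 among the siTIG1 arrays. The targeted gene RARRES1 read 12.69, 11.95 and 11.87 on the siTIG1 arrays, against 12.65, 12.61 and 13.74 on the siControl arrays. Its difference, -0.83 ± 0.36 (SE), missed the threshold (limma adjusted p = 0.25) and was -0.46 without siControl replicate 3 (limma adjusted p = 0.12), and siTIG1 replicate 1 lay above 2 of the controls. Both other RARRES1 probe sets were lower on every siTIG1 array than on every control, at -1.28 and -1.24, and neither passed over all probe sets (limma adjusted p = 0.20 and 0.23). Of 7 epithelial markers 6 lay above the yardstick explained below, and none of 2 measured mast cell, 1 of 5 endothelial (PECAM1), 1 of 5 fibroblast (COL1A1) and 1 of 4 measured leukocyte markers (CD3E) did. The epithelial marker KRT19 rose by 1.00 ± 0.15 (SE, limma adjusted p = 0.016), and no other marker passed. KRT8 and KRT5 differed by 0.42 each without passing, and KRT18, KRT14, CDH1 and EPCAM by -0.05 to 0.04. Summed over the 7 epithelial markers the log2 values came to 88.9 to 89.3 on the siTIG1 arrays and 85.9 to 88.0 on the siControl arrays. The lowest sum was that of siControl replicate 3. The part of these marker differences in the results was not tested, and in bulk RNA fewer cells of a kind and less RNA per cell cannot be told apart.

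Which kinases were well measured was judged against genes that a breast line should not use, because the deposited values carry no detection call. The yardstick was the 95th percentile of the 6-array means of 82 olfactory receptor genes, 8.78 on the log2 scale, and 49.3% of all genes lay above it. Of the 42 kinases, 18 lay above it (42.9%) and 24 did not. A signal above the yardstick is a description of this probe set, not a detection call, and probe sets differ in how brightly they read a transcript, so levels of different kinases were not ranked as amounts.

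The 18 kinases above the yardstick fell into 3 kinds by the agreement of their probe sets. MET, RYK, EPHB4, IGF1R and FGFR1 had more than 1 probe set above it: 2 of 4 for MET, 3 of 3 for RYK, 2 of 2 for EPHB4, 4 of 5 for IGF1R and 3 of 7 for FGFR1. EPHA2, MST1R and ROR2 were read by 1 probe set each. The other 10 (RET, EPHA8, TEK, EPHB3, FLT1, FGFR2, ROR1, PTK7, NTRK3 and ALK) had only the chosen probe set above it. TEK, the angiopoietin receptor of endothelial cells, read 9.30 on its chosen probe set (217711_at) and 5.61 on the other (206702_at). FLT1, a VEGF receptor, read 9.19 on its chosen probe set and between 5.73 and 7.35 on the remaining 5. RET, the receptor for GDNF family ligands, read 9.66, 8.26 and 6.26 on its 3 probe sets. For these 3 genes every remaining probe set lay below the yardstick. Just above the yardstick lay ALK at 8.79 and NTRK3 at 8.82, and the nearest kinase below it was INSR at 8.62.

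**Figure D1:**
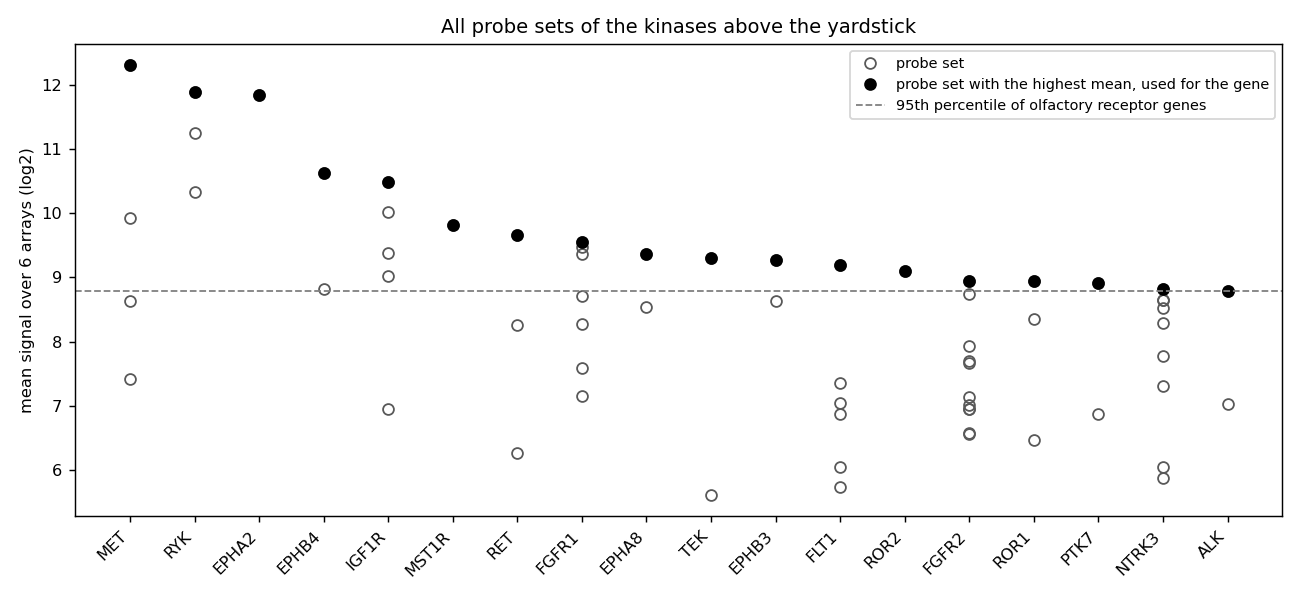
Mean signal over 6 arrays (log2, vertical axis) of every probe set of the 18 kinases above the yardstick (horizontal axis), with the probe set used for the gene filled and the dashed line at the yardstick of 8.78. RYK and EPHB4 have all of their several probe sets above the line, whereas TEK, FLT1 and RET have a wide gap between the filled point and the others.

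Only EPHA2 passed the test among the 42 kinases, and it fell. No member rose, so 1 of 42 was called (2.38%), against 7.32% of all genes tested, with 4.17% of all genes lower and 3.15% higher. At an unadjusted p under 0.05 there were 9 kinases (21.4%, 5 higher and 4 lower), against 21.9% of all genes. The median difference of the 42 was 0.05, against 0.02 over all genes, and the median size of the difference was 0.0932, against 0.0960 over all genes. These shares are close to or below those of all genes. For 34 of the 42 kinases the 95% interval of the difference lay within 0.5 of 0 on the log2 scale, which bounds how far those probe sets moved. The exceptions were MET, MST1R, IGF1R, INSR, FGFR2, EPHA2, EPHB4 and ROR1. All of these but INSR lay above the yardstick, so most of the narrow intervals belonged to probe sets below it.

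**Figure D2:**
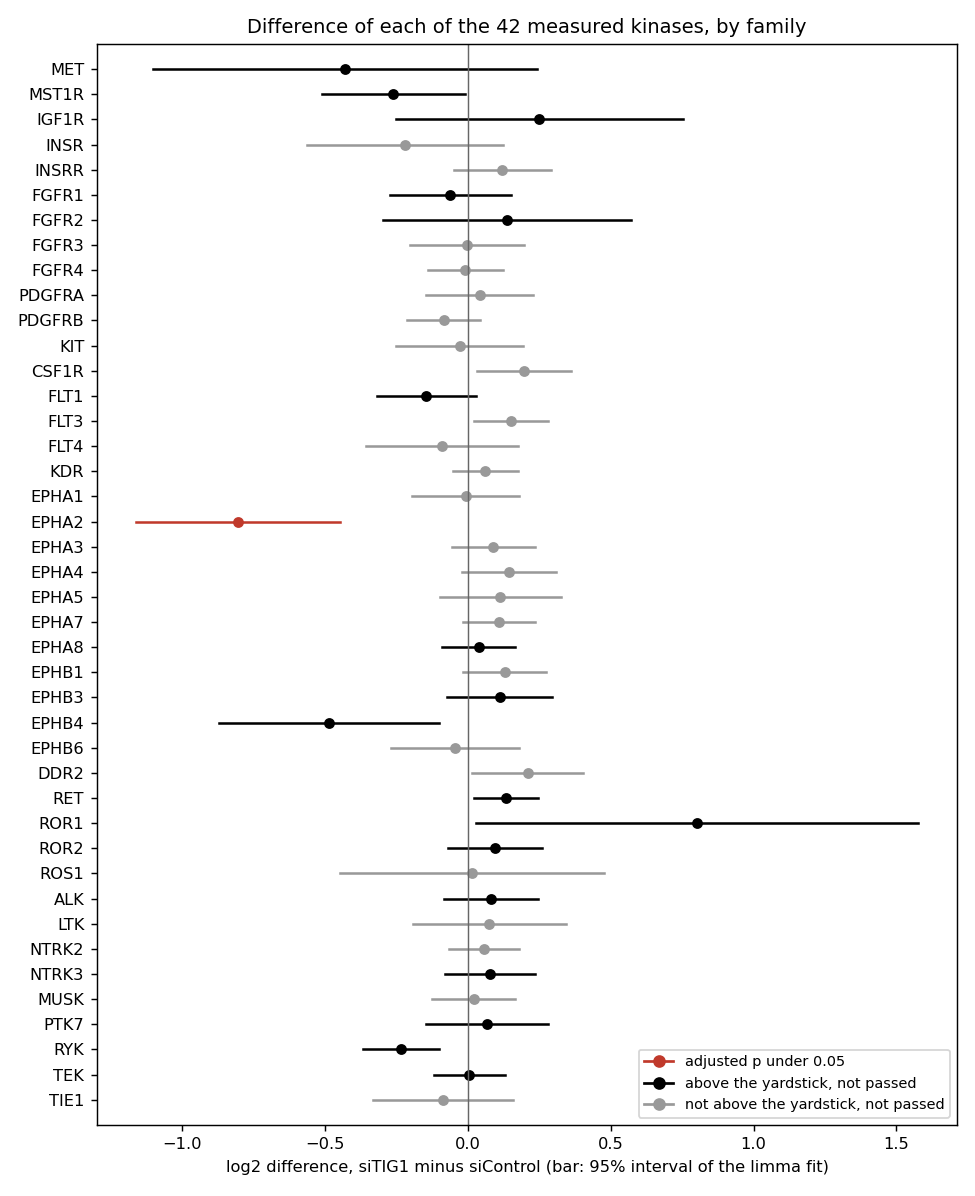
Log2 difference siTIG1 minus siControl (horizontal axis) with its 95% interval from the limma fit for each of the 42 measured kinases, ordered by family. EPHA2, in red at -0.80, is the gene past the threshold, and ROR1, at 0.80, has the widest interval.

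EPHA2 is a receptor for ephrin-A ligands on neighbouring cells and is known in breast epithelium for roles in migration and cell contact. Its probe set (203499_at) read 11.70, 11.33 and 11.31 on the siTIG1 arrays, against 12.16, 12.11 and 12.49 on the siControl arrays. Every siTIG1 array lay below every control. The means were 11.45 ± 0.22 in the siTIG1 group and 12.25 ± 0.21 in the siControl group (SD, n = 3 each), which made EPHA2 1.75-fold lower. On the log2 scale this was -0.80 ± 0.15 (SE, 95% interval -1.16 to -0.45, limma adjusted p = 0.029). The call was kept without siControl replicate 3 (-0.68, limma adjusted p = 0.0013) and without siTIG1 replicate 1 (-0.93, 0.044), and was lost without siControl replicate 1 (0.072), siControl replicate 2 (0.066), siTIG1 replicate 2 (0.13) or siTIG1 replicate 3 (0.13), with differences between -0.74 and -0.88. For scale, AXL of the TAM family differed by -1.59 (limma adjusted p = 0.0023) and EGFR of the ERBB family by -1.43 (limma adjusted p = 0.14), a value that moved with siControl replicate 3, which read 14.22, against 12.47 and 12.49 on the other controls. Without that array EGFR was at -0.86 (limma adjusted p = 7.0e-06).

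The promoter windows of EPHA2, which fell, of ROR1, which had the most positive difference of the 42, and of MET, which had the lowest adjusted p of the 42 without siControl replicate 3, are shown because these are the kinases on which the results turn. Each is the stretch of 250 bases before the RefSeq gene start in GRCh38.p14, read 5′ to 3′ on the gene's strand. Capitals mark matches, on both strands, to the GC box GGGCGG, the CCAAT box, the cAMP response element TGACGTCA, the AP-1 site TGANTCA and the TATA box TATAAA. No match of 1 motif overlapped a match of another in these 3 windows.
EPHA2 (chr1:16156070-16156319, minus strand): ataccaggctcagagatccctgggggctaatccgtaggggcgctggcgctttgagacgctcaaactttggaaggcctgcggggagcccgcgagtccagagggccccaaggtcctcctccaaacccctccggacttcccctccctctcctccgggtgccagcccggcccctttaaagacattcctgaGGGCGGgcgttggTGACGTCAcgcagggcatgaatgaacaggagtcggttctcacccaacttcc
ROR1 (chr1:63773767-63774016, plus strand): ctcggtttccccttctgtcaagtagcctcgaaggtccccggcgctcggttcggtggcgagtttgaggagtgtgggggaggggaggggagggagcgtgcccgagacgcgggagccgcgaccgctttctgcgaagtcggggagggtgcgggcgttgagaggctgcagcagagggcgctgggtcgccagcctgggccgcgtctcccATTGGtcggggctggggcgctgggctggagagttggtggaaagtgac
MET (chr7:116671946-116672195, plus strand): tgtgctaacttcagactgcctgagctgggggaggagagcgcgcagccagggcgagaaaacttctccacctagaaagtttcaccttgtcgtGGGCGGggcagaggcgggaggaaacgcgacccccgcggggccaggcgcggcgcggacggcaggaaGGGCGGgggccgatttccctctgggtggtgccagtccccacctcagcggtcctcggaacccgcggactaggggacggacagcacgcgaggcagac
The EPHA2 window holds a GC box starting 64 bases before the gene start and a cAMP response element starting 51 bases before it. The ROR1 window holds a CCAAT box on the opposite strand, starting 47 bases before the start, and the MET window holds 2 GC boxes, 160 and 95 bases before it. Over 35116 RefSeq windows of the same length, 42.6% hold the GC box, 32.0% the CCAAT box, 1.65% the cAMP response element, 6.57% the AP-1 site and 10.7% the TATA box. Of the 42 kinases 39 had at least 1 window, 59 windows in all, of which 38 hold the GC box, 24 the CCAAT box, 2 the cAMP response element, 2 the AP-1 site and 4 the TATA box. A match is a description of the letters and not a site shown to be bound.

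Other ephrin receptors did not follow EPHA2 past the threshold. EPHB4, a receptor for ephrin-B2, read 10.36, 10.43 and 10.37 on the siTIG1 arrays, against 10.74, 10.63 and 11.25 on the siControl arrays. The groups did not overlap, and siControl replicate 3 was the highest control. The difference was -0.48 ± 0.16 (SE, limma adjusted p = 0.14), and it was -0.30 without siControl replicate 3 (limma adjusted p = 0.0038). The second EPHB4 probe set (216680_s_at), also above the yardstick, gave -0.03 with all arrays. Without siControl replicate 3 it gave 0.02 (limma adjusted p = 0.82 over all probe sets), so the lower value there rests on the chosen probe set. EPHB3, another ephrin-B receptor, averaged 9.34 ± 0.06 on the siTIG1 arrays and 9.22 ± 0.12 on the siControl arrays (SD, n = 3 each), a difference of 0.11 (limma adjusted p = 0.46). EPHA8 differed by 0.04 ± 0.05 (SE). The remaining ephrin receptors lay below the yardstick, with EPHA1, EPHA3, EPHA4, EPHA5, EPHA7, EPHB1 and EPHB6 at 6.17 to 8.31 and differences of -0.05 to 0.15, none of which passed.

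A single probe set of EPHA4 passed in the fit over all probe sets. It was 227449_at, with a mean of 5.18, far below the yardstick. It read 5.41, 5.29 and 5.34 on the siTIG1 arrays, against 4.99, 5.05 and 5.02 on the siControl arrays, and so was higher by 0.33 ± 0.06 (SE, limma adjusted p = 0.027), while the probe set used for the gene gave 0.15 and the remaining 3 gave -0.01 to 0.03. Together with EPHA2, 2 of the 131 probe sets passed, against 5.01% of all probe sets.

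MET, the receptor for hepatocyte growth factor, did not pass with all arrays and passed without siControl replicate 3. Its chosen probe set (203510_at) read 12.04, 12.13 and 12.12 on the siTIG1 arrays, against 12.84, 12.90 and 11.84 on siControl replicates 1, 2 and 3. Replicate 3 of the control lay below all siTIG1 arrays and the other controls above them, so the groups overlapped. The difference was -0.43 ± 0.28 (SE, 95% interval -1.10 to 0.24, limma adjusted p = 0.44) with all arrays and -0.77 ± 0.05 (SE, limma adjusted p = 1.4e-05) without siControl replicate 3. Of the other MET probe sets 213816_s_at gave -0.39 with all arrays and -0.72 without that control, whereas 211599_x_at and 213807_x_at gave 0.00 or -0.11 and 0.02 or -0.05 in the same order. MST1R, the related receptor for macrophage-stimulating protein, read 9.64, 9.73 and 9.73 on the siTIG1 arrays, against 10.10, 10.03 and 9.74 on the siControl arrays. The groups all but touched at siControl replicate 3. Its difference was -0.26 ± 0.10 (SE, limma adjusted p = 0.21), and -0.37 without that array (limma adjusted p = 0.0010).

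RYK, a Wnt-binding receptor with a kinase domain regarded as inactive, had small negative differences on all 3 of its probe sets. The chosen probe set (202853_s_at) read 11.79, 11.75 and 11.80 on the siTIG1 arrays, against 12.08, 12.01 and 11.95 on the siControl arrays. Every siTIG1 array lay below every control, and the spread within groups was small (SD of 0.03 for siTIG1 and 0.07 for siControl, n = 3 each). The difference was -0.23 ± 0.05 (SE, limma adjusted p = 0.058), just short of the threshold, and its other probe sets gave -0.13 and -0.18. RYK passed when each array was centred on its median (-0.25, limma adjusted p = 0.046) and without siControl replicate 3 (-0.26, limma adjusted p = 0.0046).

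ROR1 and ROR2 are receptors for WNT5A. ROR1 read 9.56, 9.35 and 9.11 on the siTIG1 arrays, against 8.74, 9.06 and 7.81 on the siControl arrays. Each siTIG1 array lay above each control, and the control of replicate 3 stood 1.09 below the mean of the other controls. The difference was 0.80 ± 0.32 (SE, 95% interval 0.03 to 1.58, limma adjusted p = 0.21). All 3 ROR1 probe sets were positive, at 0.80, 0.52 and 1.13, and all 3 read lower on siControl replicate 3, by 1.09, 1.13 and 1.18. Without that array the gene's difference was 0.44 (limma adjusted p = 0.030). The other probe sets, both below the yardstick, then gave 0.14 (211057_at, limma adjusted p = 0.19 over all probe sets) and 0.74 (232060_at, with a mean of 6.46). ROR2 averaged 9.15 ± 0.09 on the siTIG1 arrays and 9.06 ± 0.06 on the siControl arrays (SD, n = 3 each), which put siTIG1 0.10 ± 0.07 higher (SE, limma adjusted p = 0.48). PTK7, another Wnt co-receptor of this class, differed by 0.07 ± 0.09 (SE).

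In the insulin receptor family IGF1R, the receptor for insulin-like growth factors, was above the yardstick, and INSR and INSRR were not. IGF1R read 10.62, 10.67 and 10.56 on the siTIG1 arrays, against 10.64, 10.59 and 9.86 on the siControl arrays. The siTIG1 arrays lay within or near the first 2 controls, and siControl replicate 3 was low. The difference was 0.25 ± 0.21 (SE, limma adjusted p = 0.55) on this probe set (203627_at). The IGF1R probe sets disagreed in sign: 225330_at gave -0.27 and 203628_at gave -0.16, and neither was low on siControl replicate 3. Without that control the chosen probe set gave -0.00, and 225330_at gave -0.22 (limma adjusted p = 0.041 over all probe sets). INSR differed by -0.22 ± 0.14 (SE) and INSRR, the insulin receptor-related receptor, by 0.12 ± 0.07 (SE), and neither passed. INSR was at -0.08 without siControl replicate 3, which stood 0.42 above the other controls.

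Among fibroblast growth factor receptors FGFR1 and FGFR2 lay above the yardstick and FGFR3 and FGFR4 below it. FGFR1 read 9.57, 9.59 and 9.43 on the siTIG1 arrays, against 9.48, 9.75 and 9.54 on the siControl arrays, so the groups overlapped, with a difference of -0.06 ± 0.09 (SE, 95% interval -0.27 to 0.15). That probe set is of the x_at kind, which can bind several transcripts, and the brightest FGFR1 probe set of another kind gave 0.05. FGFR2 read 8.95, 9.07 and 9.04 on the siTIG1 arrays, against 9.06, 9.13 and 8.45 on the siControl arrays, and its difference of 0.14 became -0.08 without siControl replicate 3. FGFR4 differed by -0.01 ± 0.05 (SE) on its chosen probe set, and by 0.03 without siControl replicate 3. On 204579_at it was at -0.36 ± 0.09 (SE) with a limma adjusted p of 0.084 among probe sets. Without siControl replicate 3 that probe set gave -0.26 (limma adjusted p = 0.0095 among probe sets). The mean signal was nearly the same (8.40 on both).

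**Figure D3:**
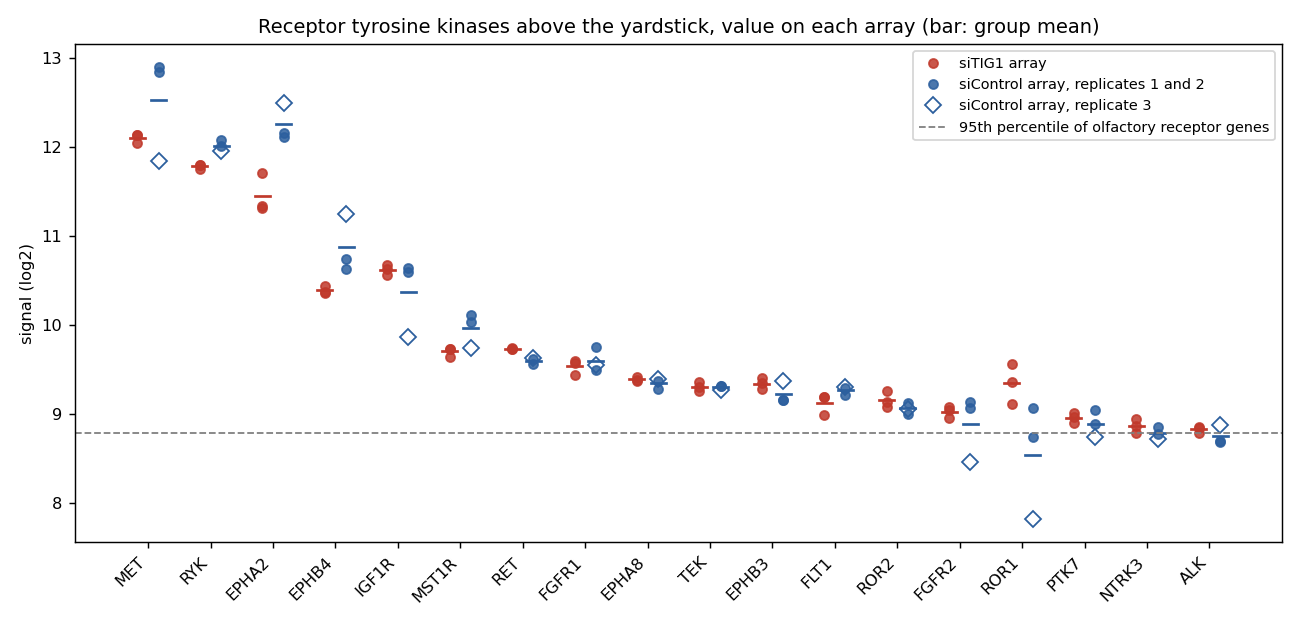
Log2 signal (vertical axis) of the 18 kinases above the yardstick (horizontal axis) on each array, siTIG1 arrays in red and siControl arrays in blue, with group means as bars, siControl replicate 3 as an open diamond and the yardstick dashed. For EPHA2 every siTIG1 point lies below every control, while for MET, IGF1R, FGFR2 and ROR1 the open diamond lies far below the other controls.

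The receptors of stromal, blood, endothelial and neural cells read low or moved little. No member of the PDGF receptor class (PDGFRA, PDGFRB, KIT, CSF1R and FLT3, at 6.78 to 8.20) lay above the yardstick. CSF1R, the receptor for colony-stimulating factor 1, read 6.97, 6.75 and 6.90 on the siTIG1 arrays, against 6.70, 6.66 and 6.67 on the siControl arrays, a difference of 0.20 ± 0.07 (SE, limma adjusted p = 0.16). FLT3, a cytokine receptor of blood progenitors, differed by 0.15 ± 0.05 (SE, limma adjusted p = 0.16). The VEGF receptors FLT1, KDR and FLT4 were at -0.14, 0.06 and -0.09, and the endothelial receptors TEK and TIE1 at 0.01 and -0.09. For TEK the dimmer probe set (206702_at, mean 5.61) gave -0.26 ± 0.06 (SE, limma adjusted p = 0.080 among probe sets). It read 5.53, 5.48 and 5.42 on the siTIG1 arrays, against 5.83, 5.71 and 5.67 on the siControl arrays. Without siControl replicate 3 that probe set gave -0.29 (limma adjusted p = 0.012 among probe sets). The neurotrophin receptors NTRK2 and NTRK3 were at 0.06 and 0.08, and ALK and LTK at 0.08 and 0.08. RET read 9.73 on each siTIG1 array, against 9.56, 9.61 and 9.62 on the siControl arrays, a difference of 0.13 ± 0.05 (SE, limma adjusted p = 0.16). The collagen receptor DDR2 was at 0.21, the agrin receptor kinase MUSK at 0.02, ROS1 at 0.02 and FGFR3 at -0.00. None of these passed with all arrays. The 24 kinases below the yardstick had differences between -0.22 and 0.21. A low signal is not shown to lie above background, so a change in a transcript that is scarcely read could be missed.

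All 3 arrays of a group lay beyond all 3 of the other for 14 of the 42 kinases (33.3%, 8 higher and 6 lower), against 32.0% of all genes. Among the 18 above the yardstick 2 were higher in this sense (ROR1 and RET) and 5 lower (EPHA2, EPHB4, RYK, MST1R and FLT1). The RET probe set behind this and behind its place above the yardstick is of the x_at kind, and the only RET probe set of another kind (211421_s_at) lay at 6.26 with overlapping groups and a difference of 0.05. FLT1 was lower on its chosen probe set only (-0.14), and every other FLT1 probe set was positive, at 0.04 to 0.09.

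Leaving out siControl replicate 3 changed the count more than leaving out any other array. Without it 10 kinases passed, 5 lower (MET, EPHA2, MST1R, EPHB4 and RYK) and 5 higher (ROR1, DDR2, ROS1, LTK and EPHB3), which is 23.8% of the 42, against 27.2% of all genes, with 14.9% of all genes lower and 12.3% higher. Of the 10, 7 lay above the yardstick. DDR2 was at 0.28, ROS1 at 0.24, LTK at 0.19 and EPHB3 at 0.18 in that comparison. The remaining DDR2 probe sets gave -0.02, 0.08 and 0.16 there, the other LTK probe set 0.09 and the other EPHB3 probe set 0.04. None of these passed over all probe sets, whereas the other ROS1 probe set did, at 0.35 (limma adjusted p = 0.011). On that array 6 kinases stood more than 0.5 away from the mean of the other controls: MET (-1.03), IGF1R (-0.76), FGFR2 (-0.64) and ROR1 (-1.09) were lower, and EPHB4 (0.56) and ROS1 (0.68) higher. The median size of this deviation was 0.10 for the 42 kinases, against 0.15 for all genes. With 1 of the other arrays left out the kinases that passed were EPHA2 or none.

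**Figure D4:**
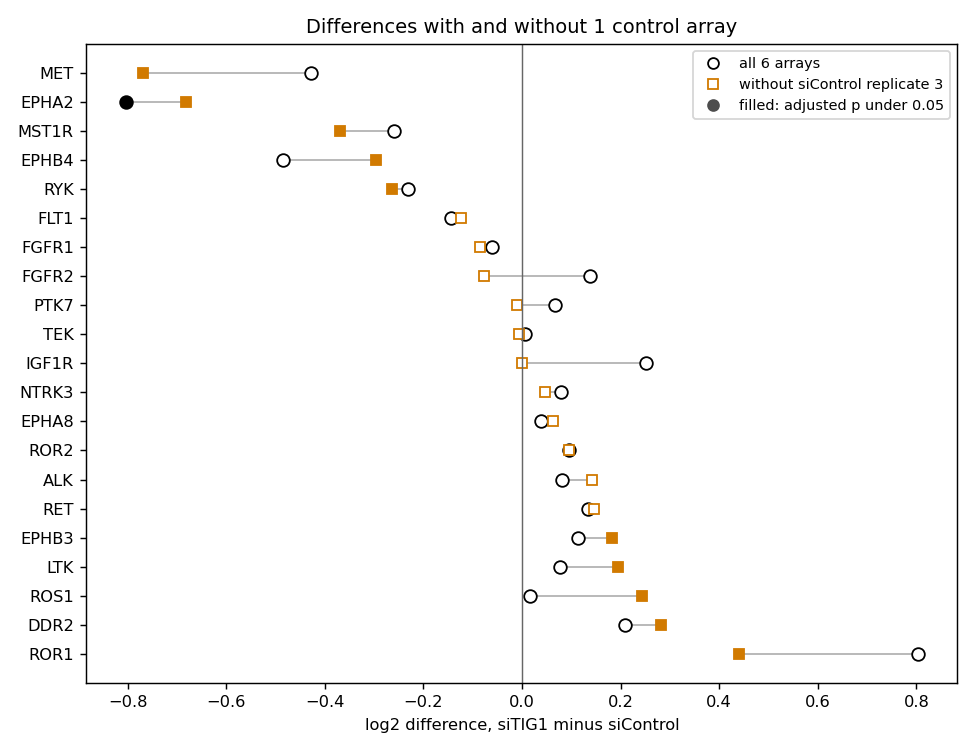
Log2 difference siTIG1 minus siControl (horizontal axis) with all 6 arrays (circles) and without siControl replicate 3 (squares) for the kinases above the yardstick and the 3 others that passed without that array, with filled symbols past the threshold. EPHA2 is filled in both cases, and MET lies at -0.77 without that array and -0.43 with it, ROR1 at 0.44 without it and 0.80 with it.

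Of 54 genes listed as ligands 47 were measured, of which 4 rose, 1 fell and 42 did not pass. The list also holds FGFBP1, which binds FGFs, and FGF13, an intracellular FGF homologue, neither of them a classical receptor ligand. Neither passed with all arrays. The share called was 10.6%, against 7.32% of all genes, with a median difference of 0.05, against 0.02 for all genes. EFNA1, a membrane-bound ligand of EPHA2, rose while its receptor fell. It read 9.86, 9.86 and 9.94 on the siTIG1 arrays, against 9.39, 9.30 and 9.51 on the siControl arrays, a difference of 0.48 ± 0.07 (SE, limma adjusted p = 0.014). WNT5A, a ligand of ROR1, ROR2 and RYK, rose to 12.09, 12.06 and 12.13 in siTIG1 cells, against 11.57, 11.69 and 11.47 in siControl cells, a difference of 0.51 ± 0.07 (SE, limma adjusted p = 0.012). NELL2, a secreted ligand of ROS1 in mouse, rose by 0.66 ± 0.05 (SE, limma adjusted p = 0.0026), and CSF1, the ligand of CSF1R, by 0.46 ± 0.05 (SE, limma adjusted p = 0.0058). Agrin (AGRN), which acts on MUSK through LRP4, fell by 0.40 ± 0.07 (SE, limma adjusted p = 0.027). HGF, the ligand of MET, was at 0.01 ± 0.06 (SE), and EFNB2, the ligand of EPHB4, at 0.20 ± 0.09 (SE, limma adjusted p = 0.24), or 0.11 without siControl replicate 3. With siControl replicate 3 left out 10 genes of this list rose and 5 fell (31.9%, against 27.2% of all genes). FGF13 was among the risers (1.02) and FGFBP1 among the fallers (-0.94). With another array left out 1 to 4 rose and 0 to 1 fell.

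Of 29 measured co-receptors and extracellular regulators 2 fell, none rose and 27 did not pass by limma (median 0.01). The share called was 6.90%, near the 7.32% of all genes. SDC4, the heparan sulfate proteoglycan syndecan-4, which binds fibroblast growth factors, read 11.81, 11.50 and 11.75 on the siTIG1 arrays, against 12.48, 12.62 and 13.09 on the siControl arrays. The fall was 2.06-fold, or -1.04 ± 0.17 on the log2 scale (SE, limma adjusted p = 0.020). FGFRL1, an FGF receptor homologue without a kinase domain, fell by 0.46 ± 0.06 (SE, limma adjusted p = 0.012). The proteases and inhibitors around HGF did not pass: matriptase (ST14) was at 0.20 ± 0.12 (SE), or 0.07 without siControl replicate 3, and its inhibitor SPINT1 at 0.01 ± 0.10 (SE). With siControl replicate 3 left out 2 of these regulators rose and 5 fell (24.1%, against 27.2% of all genes), and with another array left out 0 rose and 0 to 2 fell by limma.

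Adaptors and substrates held the largest change past the threshold in these lists, that of VAV3. Of 29 measured, 2 rose, 4 fell and 23 did not pass, so 20.7% were called, against 7.32% of all genes, with a median difference of -0.04. Of these 29, 21 lay above the yardstick, against 49.3% of all genes, and the list was chosen with earlier results known. Whether adaptors passed more often than other genes of like signal was not tested, with or without siControl replicate 3. IRS1 and IRS2, the docking proteins of the insulin and IGF receptors, both fell. IRS1 read 9.69, 9.47 and 9.51 on the siTIG1 arrays, against 10.31, 10.43 and 10.29 on the siControl arrays, a difference of -0.79 ± 0.08 (SE, limma adjusted p = 0.0049). IRS2 differed by -0.82 ± 0.12 (SE, limma adjusted p = 0.014), while IGF1R itself did not pass. PIK3R3, a regulatory subunit of PI3 kinase, fell 1.54-fold, or -0.62 ± 0.05 on the log2 scale (SE, limma adjusted p = 0.0039). VAV2 and VAV3, which are phosphorylated by activated receptor kinases and pass their signal on, went opposite ways. VAV3 read 11.52, 11.73 and 11.77 on the siTIG1 arrays, against 10.25, 10.17 and 9.70 on the siControl arrays, 3.11-fold higher (1.63 ± 0.16 SE, limma adjusted p = 0.0047). VAV2 was at -0.93 ± 0.16 (SE, limma adjusted p = 0.022). The adaptor SHC1 rose by 0.45 ± 0.09 (SE, limma adjusted p = 0.037), and the adaptors GRB2 and GAB1 were at -0.13 and -0.04, or -0.03 and 0.01 without siControl replicate 3. With siControl replicate 3 left out 7 adaptors rose and 7 fell (48.3%, against 27.2% of all genes), and leaving out another array gave 1 riser and 2 to 3 fallers.

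Of 15 measured genes of receptor turnover and dephosphorylation 1 fell and none rose by limma (median -0.17), which is 6.67%, near the 7.32% of all genes. HGS, which sorts ubiquitylated receptors to lysosomes, was at -0.39 ± 0.08 (SE, limma adjusted p = 0.039). The ubiquitin ligase CBL was at -0.38 ± 0.16 (SE, limma adjusted p = 0.23), or -0.20 without siControl replicate 3, and its homologue CBLB at 0.80 ± 0.22 (SE, limma adjusted p = 0.096). With siControl replicate 3 left out 2 turnover genes rose and 5 fell (46.7%, against 27.2% of all genes), and with another array left out 0 passed by limma. Of the 15 genes 12 lay above the yardstick, against 49.3% of all genes, and this list too was chosen with earlier results known. Whether its share differs from that of other genes of like signal was not tested.

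Of the 14 ligand, co-receptor, adaptor and turnover genes past the threshold, 4 (NELL2, IRS1, PIK3R3 and VAV3) stayed past it whichever array was left out, and all 14 did without siControl replicate 3. CSF1 reached a limma adjusted p of 0.050 without siTIG1 replicate 2. FGFRL1 lost its call without any 1 of the siTIG1 arrays (0.059 to 0.076) and IRS2 without siControl replicate 2 or siTIG1 replicate 2 or 3 (0.053 to 0.079). EFNA1, WNT5A and VAV2 lost theirs without siControl replicate 1 or any siTIG1 array, with the highest limma adjusted p at 0.082, 0.077 and 0.11 in that order. AGRN and SDC4 lost theirs without siControl replicate 2 or any siTIG1 array (highest 0.13 and 0.10), and SHC1 and HGS without each array other than siControl replicate 3 (highest 0.15 and 0.17).

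**Figure D5:**
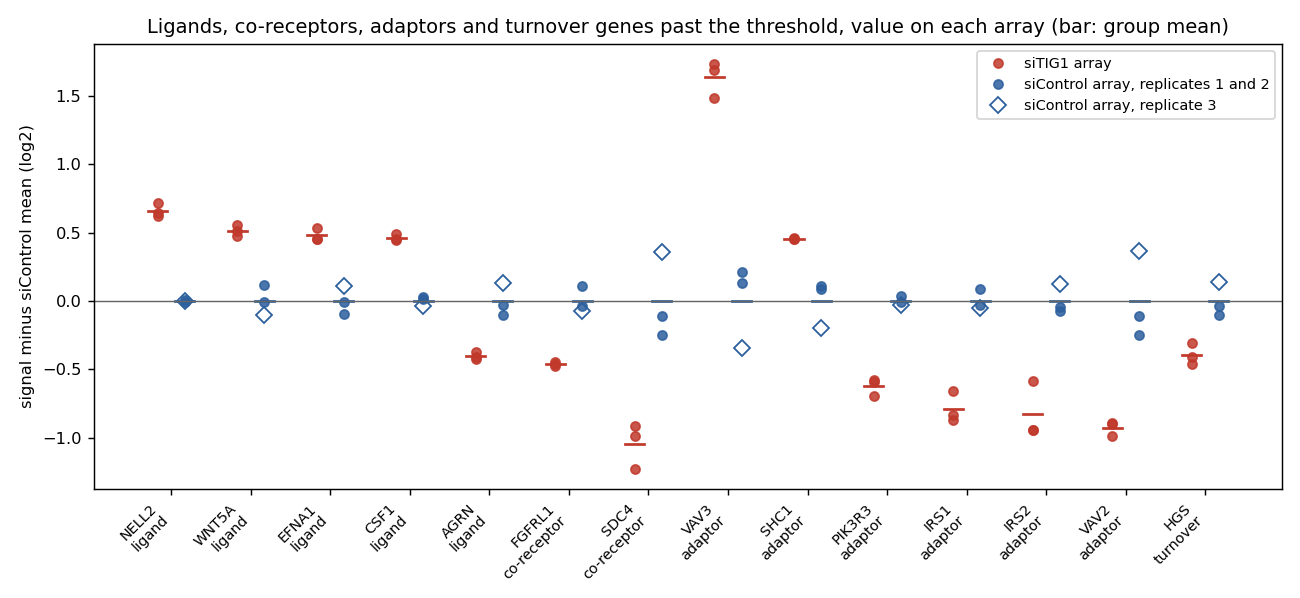
Log2 signal minus the siControl mean of the gene (vertical axis) on each array for the 14 ligand, co-receptor, adaptor and turnover genes past the threshold (horizontal axis), siTIG1 arrays in red and siControl arrays in blue with siControl replicate 3 as an open diamond, bars at group means. The red and blue points of each gene do not overlap, and VAV3 at 1.63 and SDC4 at -1.04 lie farthest from 0.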

How the data were processed

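Biotin-labelled cRNA was hybridised to Affymetrix HG-U133 Plus arrays, per the labels. For each array the authors deposited 1 value a probe set, read here as log2 because values ran between 4.28 and 15.59, since no base is stated. MAS5 and RMA are named in the submitters' processing notes without role or version. Array medians lay at 7.87 to 7.90 and sorted values differed by at most 0.093 between arrays, which shows deposited log2 values with a common distribution, and no further scaling was applied. A change shared by most genes is invisible in such values.

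Of 54675 probe sets 62 were controls, 41091 had 1 gene symbol in GEO's annotation of the platform (updated through the gene number against RefSeq GRCh38.p14, 19735 of 19775 genes matched), 1801 with several and 11721 with none listed. The probe set with the highest mean represented each gene. The test was 2-sided, by lmFit and eBayes of limma 3.58.1 (R 4.3.3) without a block, Benjamini-Hochberg adjusted over 19775 genes at a threshold of 0.05, and the script was tested on simulated data. The number of arrays limits the precision. Alternatives covered normalization, filtering, choice of probe set, eBayes settings, array weights, a replicate block and leaving out each array. Members and gene lists were chosen with earlier results of these data known. Every member could be named, and from each other list the genes past the threshold and up to 2 partners of a member. FGFBP1 and FGF13 are named only for their place in the ligand list. Promoters are RefSeq's.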

Additional observations from a re-analysis of the deposited data

How the results depend on the processing

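The fall of EPHA2 kept its direction under every alternative run. Its call was kept under median centring, trended robust eBayes and array weights. The call was also kept under quantile normalization, the filter on dim genes and both other choices of probe set. Those could alter its values little or not at all. EPHA2 has 1 probe set and lies far above the filter, and the deposited values already shared a common distribution. EPHA2 lost the call with the replicate block (limma adjusted p = 0.095). The block was not supported as a pairing: the deviations of same-numbered arrays from their group means correlated at -0.08, 0.02 and -0.04. With the replicate block 104 genes were higher and 134 lower, and 0 kinases passed. With array weights, which gave siControl replicate 3 a weight of 0.102, 2403 genes were higher and 2731 lower, and 5 kinases were higher and 5 lower. After median centring 2 kinases were lower, against 1. Leaving out 1 array gave 102 to 2423 higher and 120 to 2952 lower genes, and 0 to 5 higher and 0 to 5 lower kinases, with 5 and 5 without siControl replicate 3. Above the highest olfactory receptor gene (9.56) 8 kinases lay, against 18 above the yardstick, and 9 lay above it when probe sets were averaged by gene, an alternative that was chosen after seeing the data. In the fit over all probe sets 2 single probe sets passed and 16 did without siControl replicate 3, an alternative chosen after seeing the data, and with 1 probe set per gene 1 passed. Some near-zero differences turned sign. TEK was at -0.0104 with median centring, -0.126 as the mean of its probe sets, -0.0118 with array weights and -0.0202 to 0.0323 with 1 array left out. FGFR1 was at 0.0459 with x_at probe sets avoided, 0.0410 as the mean of its probe sets and -0.114 to 0.0183 with 1 array left out. FLT1 was at 0.0340 as the mean of its probe sets and FGFR2 at -0.0403 with array weights. With 1 array left out FGFR2 lay between -0.0764 and 0.261, IGF1R between -0.000376 and 0.390 and PTK7 between -0.00989 and 0.146. Of 252 values of the 18 kinases above the yardstick under these alternatives, 220 kept direction and side of the threshold.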

Other observations

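Some partner genes read far from the other arrays on siControl replicate 3, and were picked out after their values were seen. VEGFA, the ligand of FLT1 and KDR, read 11.09, 11.01 and 10.90 on the siTIG1 arrays, against 11.45, 11.40 and 13.42 on siControl replicates 1, 2 and 3. Its difference was -1.09 ± 0.53 (SE, limma adjusted p = 0.30) with all arrays and -0.43 (limma adjusted p = 0.0010) without that control. FGF2, a ligand of the FGF receptors, read 7.43, 7.28 and 7.57 on the siTIG1 arrays, against 7.31, 7.48 and 8.89 on the controls in the same order. KITLG, the ligand of KIT, went the other way, with 9.29, 9.44 and 9.51 on the siTIG1 arrays, against 9.47, 9.45 and 8.20 on the controls. CBLB read 10.70, 10.83 and 10.77 on the siTIG1 arrays, against 9.75, 9.63 and 10.51 on the controls, and its difference was 1.08 without siControl replicate 3.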
